A study of Homo sapiens with 2 samples.

Results

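The genes described here are 9 keratins, KRT7, KRT8, KRT10, KRT18, KRT19, KRT34, KRT80, KRT81 and KRT86, and the hair keratin-associated protein gene KRTAP2-3. They are 10 of the 13219 genes listed in at least 1 of a pair of RNA sequencing tables, and of the 27 keratin and keratin-associated genes found there by symbol, and all 10 were listed in both tables. The members were picked by symbol with their levels in these libraries already known, so every difference given for them is a description. The cells were a human breast line that the labels call 231, a name in common use for the invasive breast cancer line MDA-MB-231, grown with serum in L15 medium. The cells of one library, labelled siYBX1, were transfected against YBX1 with a reagent called an siRNA in one place and a Smart Silencer in another. Those of the other were transfected with a control labelled siNC. Both were taken 48 h after transfection. Each group had 1 library from 1 line, so there is no spread between replicates, no test and no p-value, and neighbours in an order of levels cannot be separated from sampling error.

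Keratins are the intermediate filament proteins of epithelial cells. A filament is built from heterodimers of a type I keratin, which is acidic, and a type II keratin, which is neutral to basic, so that neither type polymerises alone. In simple epithelia, including the luminal cells of the breast, the usual pairs are made from KRT8 and KRT7 on the type II side and from KRT18 and KRT19 on the type I side. Hair keratins such as KRT34, KRT81 and KRT86 form the filaments of the hair shaft, where small cysteine-rich keratin-associated proteins such as KRTAP2-3 crosslink them. The type II genes lie together on chromosome 12 and most type I genes, with many keratin-associated genes, on chromosome 17, while KRT18 lies beside KRT8 on chromosome 12.

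YBX1 itself was listed at 38.1 FPKM after the knockdown, against 649 FPKM in the control library. FPKM are fragments scaled to transcript length and library size. They came without counts, so the depth and the counting error of each value are unknown. The line's mesenchymal markers were high in both libraries, among them VIM at 250 against 201 FPKM (siYBX1 first, here and below) and AXL at 306 against 218 FPKM. ESR1 and PGR, the hormone receptors of luminal breast cells, were listed in neither table, and the epithelial cadherin CDH1 was listed only in the siNC table, at 0.0668 FPKM. Other luminal markers had values in both tables, among them EPCAM at 5.10 against 8.22 FPKM, GATA3 at 2.14 against 2.34 FPKM and CLDN4 at 26.9 against 9.46 FPKM.

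The hair members KRT34, KRT81, KRT86 and KRTAP2-3 had higher values in the siYBX1 library, most of all KRTAP2-3. KRT8 stood lower there and its partner KRT18 nearly level. A gene was compared when both tables listed it and its mean reached 1 FPKM, and called higher or lower where its log2(FPKM + 1) differed by 1 or more, which is 2-fold on that scale. In all, 9 of the 10 genes were compared, and KRT86 lay under the minimum. KRTAP2-3 and KRT34 were higher, beside 7.20% of all 10548 compared genes. KRT8 was lower, beside 5.62% of all compared genes. The other 6 lay within 2-fold on that scale, though the plain FPKM ratio of KRT81 was 2.28. Since these values chose the members, nothing is read from their count or from their median difference, which was 0.49, the value of KRT10. The median difference of all compared genes was 0.02. Over all genes the numbers of higher and lower genes were 759 and 593 as deposited but 570 and 822 after scaling to equal totals. That scaling set the median of all genes at -0.11.

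**Figure D1:**
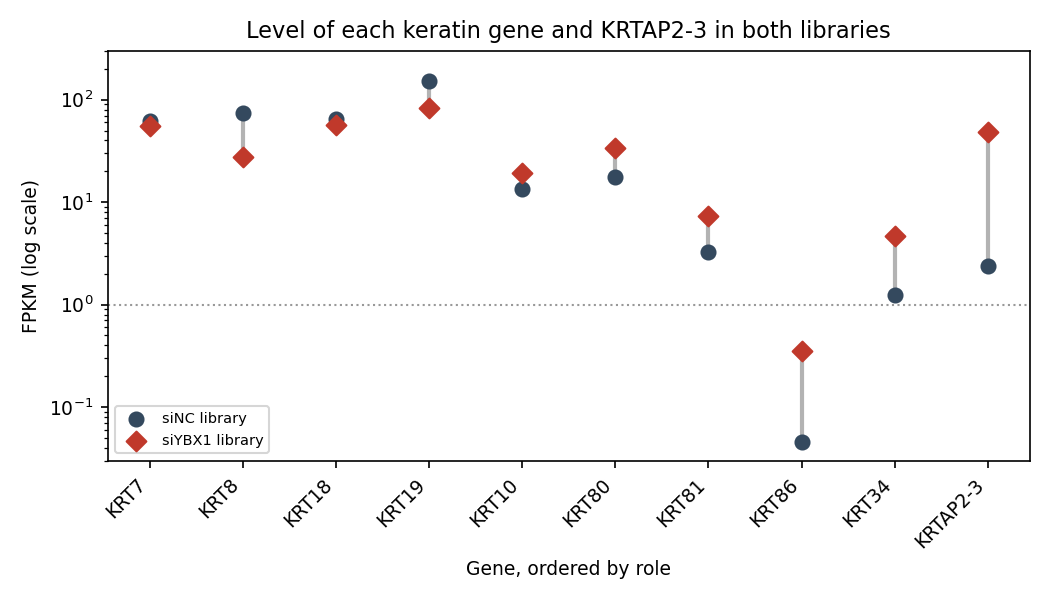
Level of each member in FPKM on a log axis in the siNC library (circles) and the siYBX1 library (diamonds), joined by a grey line, with a dotted line at 1 FPKM and 1 library per group. KRT7 and KRT18 nearly coincide, KRT8 stands lower after the knockdown at 27.7 against 74.7 FPKM, and KRTAP2-3 stands higher at 48.0 against 2.37 FPKM.

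The simple epithelial keratins were the most abundant members in the siNC library. KRT19, the smallest type I keratin, which lacks most of the tail domain of the others, had the highest level of all members in both libraries, at 83.0 FPKM after the knockdown and 153 FPKM in the control. Its difference was -0.87, a ratio of 1.84, just inside the 2-fold limit. It passed the limit when both libraries were scaled to the same total, at -1.02, and when the median of genes of like transcript length was subtracted, at -1.10.

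KRT8, the type II partner of KRT18, was listed at 27.7 FPKM after the knockdown and at 74.7 FPKM in the control, a ratio of 2.70. Its difference of -1.40 ranked 187 from the bottom among the 10548 compared genes. Among the members KRT8 was 2nd in level in the siNC library and 6th in the siYBX1 library, below KRTAP2-3 and KRT80. KRT18 was listed at 57.2 against 64.2 FPKM, a difference of -0.16. KRT7, the other type II keratin of simple and ductal epithelia, was listed at 55.1 against 61.8 FPKM, also a difference of -0.16.

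Ratios between genes of the same library do not depend on how the libraries are scaled to each other. KRT8 stood at 1.16 times the level of KRT18 in the siNC library and at 0.484 times in the siYBX1 library. The ratio of KRT7 to KRT18 was 0.962 in the siNC library and 0.964 in the siYBX1 library. Thus KRT8 was above KRT7 and KRT18 in one library and below both in the other, while KRT7 and KRT18 had nearly the same ratio in both. The ratio of KRT19 to KRT18 was 2.38 in the siNC library and 1.45 in the siYBX1 library.

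KRT8 and KRT18 neighbour each other on opposite strands, and their transcripts overlap in the GENCODE 29 annotation. Of the 50-base stretches of the longest KRT18 coding transcript, 19.8% also occurred in a KRT8 transcript. In all, 43.4% of the KRT18 stretches occurred in some other gene, mostly KRT8 and KRT18 processed pseudogenes, against 3.73% for KRT8. No keratin pseudogene and no keratin antisense gene was listed in either table. Whether counting used strand is not given in the sources used here, so reads of the overlap cannot be assigned, and the single values of both genes are uncertain to that extent. Summed, KRT8 and KRT18 came to 84.9 against 139 FPKM.

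KRT8 and KRT18 are also the keratins of hepatocytes, and hepatocyte genes differed between the tables. Of 16 hepatocyte markers, 14 were listed only in the siNC table, at 0.729 to 12.0 FPKM and 64.0 FPKM in sum, with ALB at 10.4 FPKM and none at 0. SERPINA1, which other cells also express, was listed at 40.0 against 17.0 FPKM, and TTR was listed in neither table. The part of these transcripts in the difference of KRT8 was not tested. Both libraries were labelled as the same breast line, and the source of these hepatocyte transcripts is not known. In such bulk RNA, fewer cells of a type and less RNA per cell cannot be told apart.

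The remaining non-hair keratins were higher after the knockdown, inside 2-fold. KRT80, a type II keratin of many epithelia that lies at one end of the chromosome 12 cluster, had 34.0 FPKM after the knockdown and 17.5 FPKM in the control, a difference of 0.92. It held 11.8% of the summed keratin FPKM after the knockdown and 4.51% in the control, and KRT8 held 9.59% and 19.2%. KRT80 had almost no 50-base stretch in common with another gene (0.416%). KRT10, the type I keratin of the suprabasal epidermis, was listed at 19.1 against 13.3 FPKM, a difference of 0.49. Only 0.434% of its stretches occurred in another gene.

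With FPKM scaled to length, sums over genes approximate transcript numbers within a library, though how several transcripts of a gene were combined is not given. Between libraries the sums also depend on scaling, and all listed genes summed to 222872 FPKM (siYBX1) and 201233 FPKM (siNC). The 4 simple epithelial members summed to 223 FPKM in the siYBX1 library and to 353 FPKM in the siNC library. All 9 keratin members summed to 288 against 389 FPKM. The type II members stood at 0.760 times the type I members after the knockdown and at 0.679 times in the control.

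**Figure D2:**
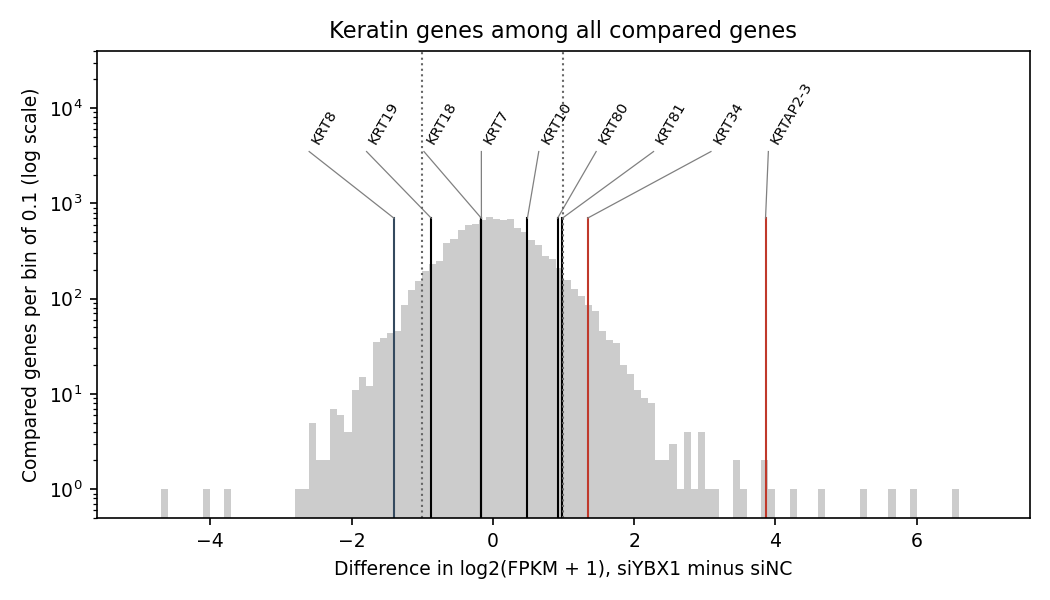
Number of compared genes (log axis) in bins of 0.1 of the difference in log2(FPKM + 1), siYBX1 minus siNC, with vertical lines at the 9 compared members and dotted lines at the 2-fold limits. The 6 members drawn in black lie between the limits, KRT8 lies below the lower one at -1.40, and KRT34 at 1.34 and KRTAP2-3 at 3.86 lie above the upper one.

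Of the hair genes, KRTAP2-3 had the largest difference of all members. Its level was 48.0 FPKM after the knockdown and 2.37 FPKM in the control, a ratio of 20.2 and a difference of 3.86 that ranked 9 from the top among the 10548 compared genes. In the siNC library it was the 8th of the 10 members in level and in the siYBX1 library the 4th, above KRT80 and KRT8. At a pseudocount of 5 in place of 1 the difference was 2.85, and at 0.1 it was 4.28. The transcript is short, at 875 bases, and the shortest of 10 equal groups of genes by transcript length had a median difference of 0.22. With that median subtracted the difference was 3.64.

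The other listed keratin-associated genes were those of the same family, which neighbour KRTAP2-3 on chromosome 17. KRTAP2-4 was listed at 2.11 against 0.201 FPKM, a difference of 1.37. KRTAP2-1 and KRTAP2-2 were listed only in the siYBX1 table, at 1.20 and 1.15 FPKM. All 4 thus had a value in the siYBX1 table, and KRTAP2-3 was the highest in both. Their transcripts are much alike. Of the 50-base stretches of KRTAP2-3, 39.7% occurred in another member of the family and 39.5% in KRTAP2-4, and for KRTAP2-1, KRTAP2-2 and KRTAP2-4 the shares in other genes were 63.8%, 62.7% and 52.6%. The single values of all 4, KRTAP2-3 included, are therefore uncertain, since reads could be divided between these genes. Summed over the listed KRTAP2 genes, the family came to 52.5 against 2.57 FPKM, a ratio of 20.4.

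**Figure D3:**
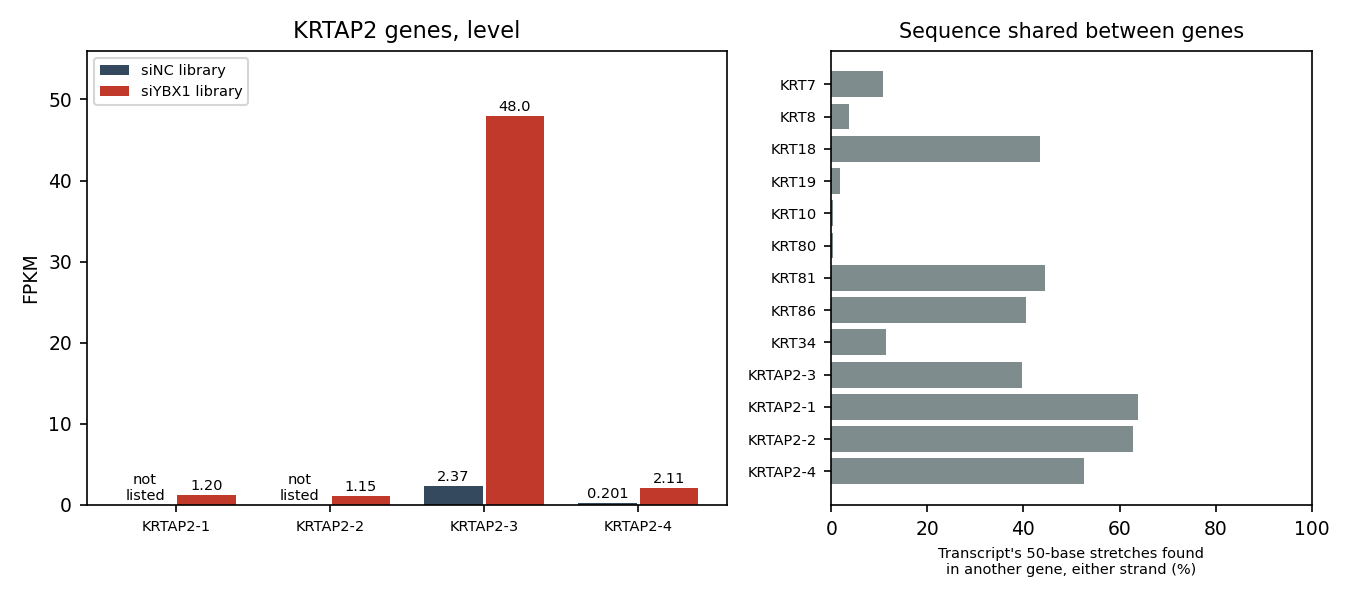
Left, FPKM of the 4 KRTAP2 genes in both libraries, with genes absent from a table marked as not listed. Right, for each member and each KRTAP2 gene, the percentage of 50-base stretches of its longest coding transcript that also occur in another gene on either strand, with 39.7% for KRTAP2-3 and 63.8% for KRTAP2-1.

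The promoter windows of the KRTAP2 genes and of KRT34 are given to show how far they are alike. Each window has 250 bases before and 50 bases after the start that RefSeq annotates. They are on the minus strand of GRCh38.p14, which is not the build of the tables, at chr17:41060065-41060364 for KRTAP2-3, chr17:41047267-41047566 for KRTAP2-1, chr17:41055181-41055480 for KRTAP2-2, chr17:41065830-41066129 for KRTAP2-4 and chr17:41382257-41382556 for KRT34. Of the 10 members, KRTAP2-3, KRT34, KRT8 and KRT10 were found in the promoter table. Capitals mark TATAAA, the TATA box, and CCAAT, the CCAAT box, the motif to which YB-1 owes its name as a Y-box binding protein, searched on both strands so that the second also reads ATTGG. No match of one overlapped a match of the other.
KRTAP2-3: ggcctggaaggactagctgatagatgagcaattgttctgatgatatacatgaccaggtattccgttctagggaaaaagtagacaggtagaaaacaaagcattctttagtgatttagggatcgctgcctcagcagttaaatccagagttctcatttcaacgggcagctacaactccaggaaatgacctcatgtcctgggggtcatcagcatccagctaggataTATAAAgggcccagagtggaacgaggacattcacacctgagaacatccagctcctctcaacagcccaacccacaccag
KRTAP2-1: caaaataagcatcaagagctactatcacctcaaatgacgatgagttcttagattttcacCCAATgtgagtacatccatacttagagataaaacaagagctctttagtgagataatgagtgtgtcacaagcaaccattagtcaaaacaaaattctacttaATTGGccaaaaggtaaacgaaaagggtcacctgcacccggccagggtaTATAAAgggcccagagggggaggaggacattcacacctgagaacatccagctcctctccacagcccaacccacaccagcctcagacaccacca
KRTAP2-2: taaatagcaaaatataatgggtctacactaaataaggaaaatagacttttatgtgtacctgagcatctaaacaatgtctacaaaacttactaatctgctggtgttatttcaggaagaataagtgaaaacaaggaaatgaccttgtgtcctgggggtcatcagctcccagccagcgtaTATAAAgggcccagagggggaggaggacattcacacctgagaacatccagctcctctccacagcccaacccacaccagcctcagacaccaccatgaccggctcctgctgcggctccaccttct
KRTAP2-4: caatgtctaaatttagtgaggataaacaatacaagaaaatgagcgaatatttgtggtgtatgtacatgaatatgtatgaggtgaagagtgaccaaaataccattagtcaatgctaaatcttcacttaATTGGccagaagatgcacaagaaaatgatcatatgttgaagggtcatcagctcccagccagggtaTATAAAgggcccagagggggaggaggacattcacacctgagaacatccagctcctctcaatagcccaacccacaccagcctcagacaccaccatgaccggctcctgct
KRT34: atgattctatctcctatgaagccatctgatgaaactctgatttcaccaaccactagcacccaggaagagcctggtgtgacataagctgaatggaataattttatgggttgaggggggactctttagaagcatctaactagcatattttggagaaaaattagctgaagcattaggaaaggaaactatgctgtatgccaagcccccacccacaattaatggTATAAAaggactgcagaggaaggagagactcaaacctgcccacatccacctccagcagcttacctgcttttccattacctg

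Each of the 5 windows held 1 TATA box, a motif present in 11.5% of 35114 RefSeq windows of the same length. It began 28 bases before the annotated start in KRTAP2-3 and 31 bases before it in KRT34. In KRTAP2-1, KRTAP2-2 and KRTAP2-4 it began 43, 73 and 58 bases before the start. The windows therefore reach unequally far upstream of the TATA box. The CCAAT box occurred in KRTAP2-1 at 2 places and in KRTAP2-4 at 1 place, and these letters were not in the windows of KRTAP2-2, KRTAP2-3 or KRT34. It was present in 34.6% of all windows. Aligned without gaps from the TATA box on, each of the other KRTAP2 windows matched KRTAP2-3 at 74 of 78 bases. Over the 50 bases just before the TATA box the matches were 41 for KRTAP2-2, 27 for KRTAP2-4 and 23 for KRTAP2-1, and over the 100 bases before those they were 36, 32 and 21. The AP-1 motif TGANTCA, in which N is any base and which reads the same on both strands but for N, was in 7.71% of all windows and not in these 5.

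KRT34, a type I hair keratin, had 4.67 FPKM after the knockdown and 1.24 FPKM in the control, a ratio of 3.78. Its difference of 1.34 ranked 334 from the top, and at a pseudocount of 5 it was 0.63, inside 2-fold. It shared 11.4% of its 50-base stretches with the neighbouring hair keratins KRT33B, KRT33A and KRT31, of which KRT33B alone was listed, at 0.364 FPKM and in the siNC table only.

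KRT81, a type II hair keratin, had 7.39 FPKM after the knockdown and 3.24 FPKM in the control, a ratio of 2.28. On the log2(FPKM + 1) scale its difference of 0.99 lay just under the limit, and at a pseudocount of 0.1 it was 1.17. KRT86, its near-identical neighbour, was listed at 0.353 against 0.0454 FPKM, low in both, so no fold is given. KRT81 shared 38.4% of its 50-base stretches with KRT86, and 44.6% with other genes in all. Summed, KRT81 and KRT86 came to 7.74 against 3.28 FPKM, a difference of 1.03, which is past the limit. KRT83 and KRT85, to which reads of both could also be assigned, were listed in neither table.

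The hair members together summed to 60.4 FPKM in the siYBX1 library and 6.89 FPKM in the siNC library. KRTAP2-3 was the largest of them in the siYBX1 library and KRT81 in the siNC library. Most hair shaft markers had no value: of 10, KRT31, KRT33A, KRT35, KRT83, KRT85 and FOXN1 were listed in neither. HOXC13, the factor that drives hair keratin genes, was listed at 0 in the siNC table and not in the other. TCHH, the trichohyalin of the inner root sheath, was listed at 0.257 FPKM in the siNC table only, and S100A3, a calcium-binding protein of the hair cuticle, was listed at 7.94 against 3.05 FPKM.

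The other 14 listed keratins were low. KRT15, a basal type I keratin, was listed in both tables at 0.629 against 0.739 FPKM. The remaining 13 were listed only in the siNC table, where KRT23 was highest at 0.520 FPKM. Next came KRT33B, KRT17 at 0.356 FPKM and KRT5, the basal type II keratin, at 0.282 FPKM. KRT14, KRT16, KRT4 and KRT6C lay between 0.0235 and 0.0522 FPKM, and KRT6A, KRT6B, KRT9, KRT38 and KRT75 were listed at 0. Of these 13, 11 belonged to a second run of rows at the end of the siNC table that holds 1258 genes under 0.5 FPKM and that has no counterpart in the siYBX1 table. KRT86 belonged to it too. Absence from the siYBX1 table is therefore not read as a lower level.

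Genes that lie beside the keratin clusters were compared by the order of RefSeq genes, with the 5 nearest compared genes on each side. Next to the chromosome 12 cluster, all 10 lay within 2-fold, between -0.33 for SMAGP and 0.67 for SPRYD3. Next to the chromosome 17 cluster, 3 of 10 were higher: IGFBP4 at 155 against 64.8 FPKM, EIF1 at 32.6 against 13.0 FPKM and JUP at 7.35 against 1.88 FPKM. The shares over all compared genes were 7.20% higher and 5.62% lower, and these neighbours were named after their values were seen. None of the 10 was lower by 2-fold, and the lowest difference was -0.80 for TOP2A.

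Genes of the proteins that keratin filaments attach to had differences of both signs. The counts in this list and the next ones stand beside 7.20% higher and 5.62% lower of all compared genes. Of 19 desmosome and cytolinker genes, 10 were compared, with 1 higher, 2 lower and a median of -0.38, against 0.02 for all genes. The values of these lists were not corrected for transcript length. The longest of 10 equal groups of genes by transcript length had a median difference of -0.23. JUP, the plakoglobin of the desmosomal plaque, was higher, with a difference of 1.54. DST, a cytolinker, was listed at 10.5 against 39.1 FPKM and EVPL, the envoplakin, at 4.10 against 16.8 FPKM, both differences of -1.80 to -1.81. PLEC, which links keratins to hemidesmosomes and actin, was listed at 68.8 against 124 FPKM, a difference of -0.84. The desmosomal genes PKP1, DSG1, DSG3, DSG4 and DSC1 were listed in neither table.

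All 7 hemidesmosome genes were compared, with 2 higher, 1 lower and a median of -0.03, beside the shares of 7.20% and 5.62% over all compared genes. The collagen XVII gene COL17A1 was listed at 4.04 against 0.519 FPKM and the laminin chain gene LAMB3 at 93.0 against 40.0 FPKM. The laminin chain gene LAMA3 was lower, at 2.03 against 7.46 FPKM. Thus LAMB3 and LAMA3, which encode chains of one laminin, lay past the limit on opposite sides.

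Of 15 other intermediate filament genes, 5 were compared, with 0 higher, 1 lower and a median of -0.45. SYNM, the synemin that joins vimentin or desmin filaments, was listed at 3.38 against 10.1 FPKM. The vimentin gene VIM, the main filament of mesenchymal cells, had a difference of 0.31. The nuclear lamin genes LMNB1 and LMNB2 had differences of -0.45 and -0.52.

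Of 11 genes whose proteins bind or modify keratins, 10 were compared, with 1 higher, 2 lower and a median of -0.08. TCHP, the trichoplein that binds KRT8 and KRT18 filaments, was listed at 3.41 against 12.5 FPKM, and the scaffold gene AKAP9 at 5.29 against 16.3 FPKM. YWHAQ, a 14-3-3 protein gene, was higher at 206 against 95.7 FPKM. STUB1, a ubiquitin ligase, was listed at 10.8 against 17.7 FPKM, a difference of -0.66. Of 19 genes of the cornified envelope and epidermal differentiation, 2 were compared: TGM2, a transglutaminase, was higher at 47.4 against 20.4 FPKM, and CNFN had a difference of -0.98.

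Of 24 transcription factor genes known to act on keratin or hair keratin genes, 14 were compared, with 4 higher, 1 lower and a median of 0.31. The shares over all compared genes were 7.20% higher and 5.62% lower, and the list was chosen with earlier results of these data known. The AP-1 gene JUNB was listed at 31.0 against 6.07 FPKM, CEBPB at 40.6 against 11.5 FPKM and TFAP2C, a factor of luminal and epidermal genes, at 4.97 against 1.30 FPKM. The 4th was NFKB1, at 12.3 against 5.45 FPKM. FOSL1, another AP-1 gene, was lower at 187 against 531 FPKM. Thus the AP-1 genes of this list included both a higher and a lower gene.

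**Figure D4:**
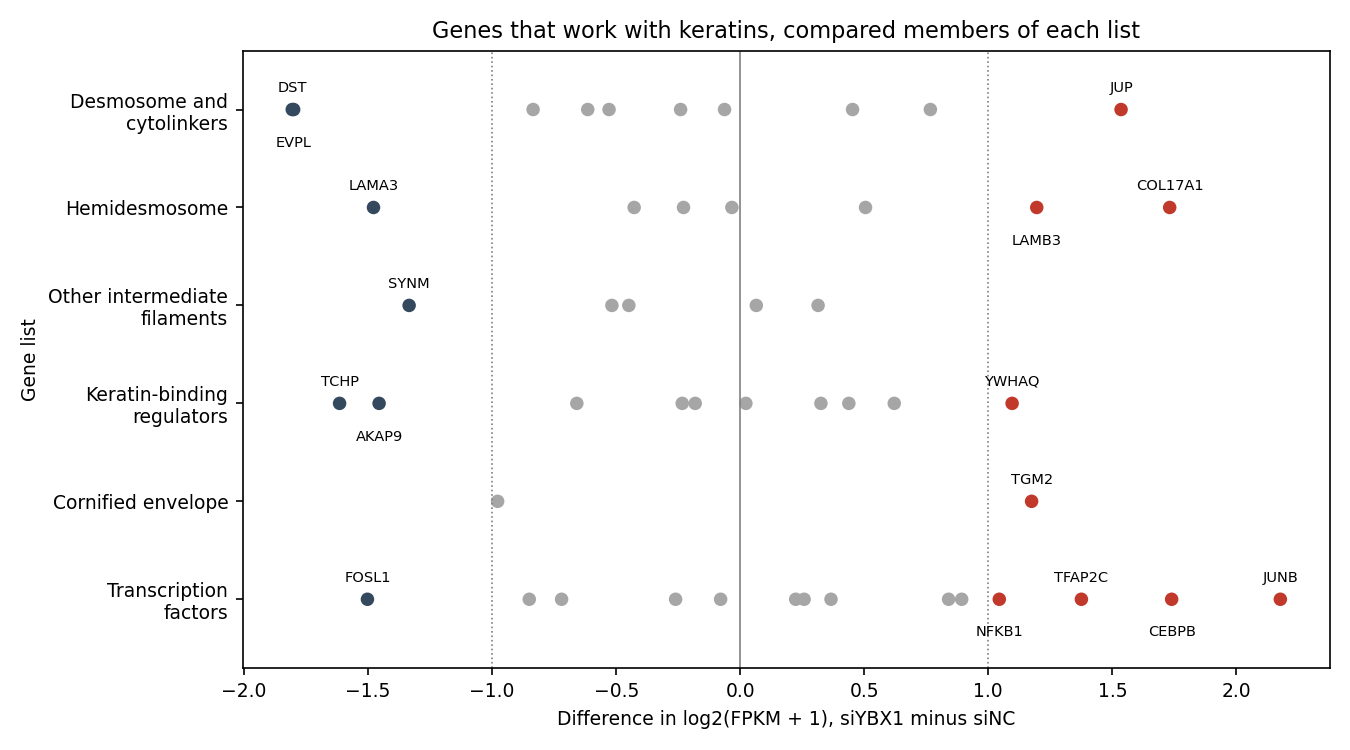
Difference in log2(FPKM + 1), siYBX1 minus siNC, of each compared gene in 6 lists of genes that work with keratins, with genes past the 2-fold limits (dotted) coloured and named. Higher and lower genes occur in 4 of the 6 lists, for example JUP at 1.54 and DST at -1.81 among the desmosome and cytolinker genes.

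The differences of the members were recomputed under 12 other settings of pseudocount, scaling and filter, and none changed sign. KRT8 lay between -1.54 and -1.29 and KRTAP2-3 between 2.85 and 4.28, both past the 2-fold limit throughout. KRT7, KRT10, KRT18 and KRT80 stayed within 2-fold throughout. KRT19, KRT34 and KRT81 crossed the limit in the settings named above.

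**Figure D5:**
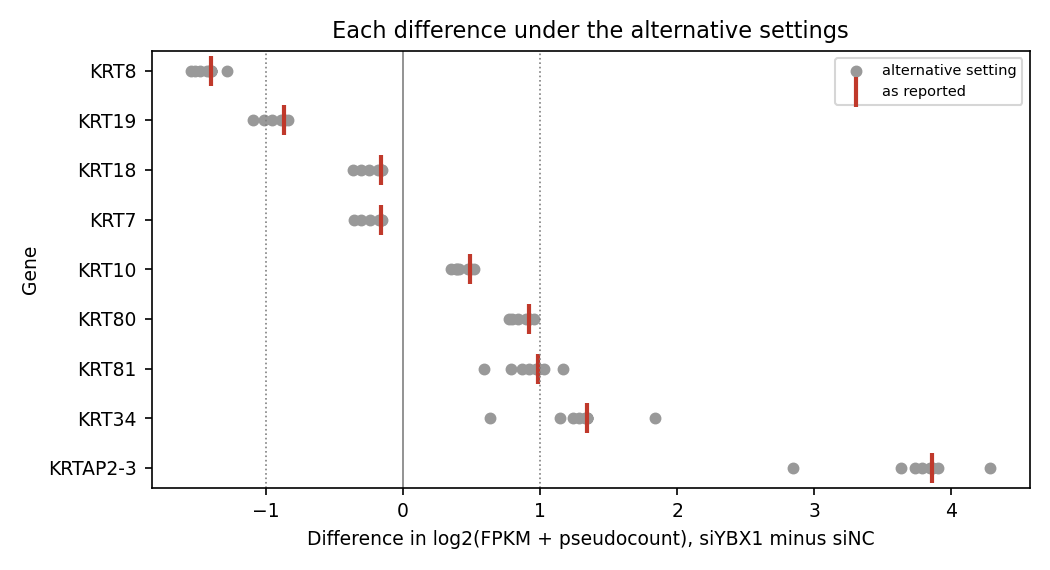
Difference in log2(FPKM + pseudocount), siYBX1 minus siNC, of each compared member as reported (red bar) and under the alternative settings (grey points), with dotted lines at the 2-fold limits. KRT34 spreads from 0.63 to 1.84 with the pseudocount, and KRT8 and KRTAP2-3 stay past the limit in every setting.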

How the data were processed

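Total RNA was extracted with Trizol and made into libraries by an Illumina procedure, per the labels' protocols. The authors deposited 1 table of FPKM per library, per the file headers. Its making involved StringTie 1.3.3, HISAT2 2.1.0 and cutadapt 1.17 with the build GRCh37, per the submitters' processing notes, which state neither role nor order. Annotation and strand handling: not given in the sources used here. Of the siYBX1 genes with 1 transcript in GENCODE 29, 702 of 709 had values of at most 6 decimals, against 127 of 10908 genes with several. How several transcripts were combined into 1 value is not given here, which limits comparisons of level between genes.

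The tables listed 11678 (siYBX1) and 13017 (siNC) genes, 11476 in both. Differences were computed as log2(FPKM + 1), siYBX1 minus siNC, with Python 3.11.15 and pandas 2.3.3, and the counting was tested on simulated data. The members and lists were chosen with earlier results of these data known. The named genes are all members, every other listed keratin and keratin-associated gene, up to 4 genes per partner list with the largest absolute differences, and YBX1, and a gene that this rule admits is not reported here. NFKB1, the genes beside the clusters and the marker genes were named after their values were seen. With 1 difference per gene, ranks are given in place of genes of like pattern. Shared 50-base stretches came from GENCODE 29 transcripts on GRCh38, promoters from RefSeq on GRCh38.p14. Transcript length was that of the longest coding transcript, and its correction was chosen after seeing the data.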

Additional observations from a re-analysis of the deposited data

How the results depend on the processing

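No member's difference changed sign in any setting tried. Of the 9 compared members, 2 were higher in the main setting, 3 (with KRT81) at a pseudocount of 0.1, 1 (KRTAP2-3) at a pseudocount of 5 and 1 at a mean of at least 5 FPKM, which leaves KRT34 out. The count of lower members was 1 in the main setting and 2 (KRT8 and KRT19) at the same total and with the median of genes of like transcript length subtracted. The pseudocount moved the counts over all 10548 genes: 314 higher and 209 lower at 5, and 1097 higher and 925 lower at 0.1. No other setting moved a count of all genes by over 1.5 times. Summing KRT8, KRT18 or KRT19 with pseudogenes gave no value, as none was listed. No paired analysis was possible because each group has 1 library. For the same reason no replicate could be left out, and with no counts the depth behind low genes such as KRT86 and the smaller KRTAP2 genes is unknown.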

Other observations

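Other markers of breast epithelial cells, chosen with earlier results of these data known, gave the following values. Their counts stand beside 7.20% higher and 5.62% lower of all compared genes. Of 10 luminal markers, 6 were compared, with 1 higher and 0 lower and a median of 0.08. CLDN4, a tight junction claudin, had a difference of 1.41, while CLDN7 was listed at 5.97 against 3.44 FPKM (siYBX1 first) and CLDN3 at 1.58 against 3.28 FPKM. The adhesion gene EPCAM had a difference of -0.60. Of the 3 claudins, CLDN4 alone passed the limit on the log2(FPKM + 1) scale. CLDN3 had a difference of -0.73 there, though its plain FPKM differed by more than 2-fold.

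Of 8 basal and myoepithelial markers, 3 were compared, with 0 higher and 1 lower. The oxytocin receptor gene OXTR was listed at 1.19 against 9.12 FPKM, a difference of -2.21. MYLK and EGFR had differences of -0.39 and -0.27. Of 9 keratinocyte markers, 0 were compared. The filaggrin gene FLG was listed at 0.117 against 0.987 FPKM. Of the 5 markers of a mesenchymal basal line, all were compared and 0 passed 2-fold, with a median of 0.48.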
